A study of Mus musculus with 4 samples.

Results

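GCmat1 is the cluster that the authors of this study annotated as mature granule cells at the end of the path of adult neurogenesis in the mouse dentate gyrus. Its members were taken as the nuclei whose deposited cluster is GCmat1 and whose deposited pseudo-time, the position along the inferred path from stem cell to neuron, is a number. These are 3136 of 14367 nuclei. Another 220 nuclei carry the same cluster name with no pseudo-time and are described as a separate group.

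Each library held nuclei sorted from the dentate gyri of CAGfloxStop-Sun1/sfGFP mice with a tamoxifen-inducible Cre, male and female, at 1 interval after tamoxifen: w1, w2, w4 and w8, for 1, 2, 4 and 8 weeks. In these mice, which were 6 to 8 weeks of age, cells in which Cre was active at induction, and their progeny, carry a green nuclear envelope. Tissue of 4 mice was pooled for each library, and all libraries share the genotype and the induction, so each week is 1 pool without a replicate and a sorted nucleus can descend from any cell that recombined. Levels are given as CPM, the UMIs (tagged RNA molecules) of a gene per 1e6 UMIs of the same nuclei, counted over exons and introns.

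Granule cells are the principal excitatory neurons of the dentate gyrus. They receive entorhinal input on their dendrites and send mossy fibre axons to CA3, and in adult rodents they continue to be produced from radial glia-like cells (RGL) through neural progenitor cells (NPC), neuroblasts (NB1, NB2) and immature granule cells (GCimm1, GCimm2). On the way they replace the cytoskeletal and SoxC transcription factor programme of young neurons with that of an excitable, synaptically connected cell. GCyoung is the last cluster before GCmat1 on the deposited path, and GCmat2 is a small second cluster of mature granule cells.

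GCmat1 was almost entirely a population of the 2 late libraries. Of its members 2711 were from w8, 399 from w4, 9 from w2 and 17 from w1, so that 86.4% came from w8. GCyoung had the opposite make-up, with 1979 nuclei in w4 and 188 in w8, and GCmat2 held 60 and 149. GCmat1 nuclei had a median of 7974.5 UMIs and 2768.5 detected genes, with medians of 8793, 10481, 8600 and 7846 UMIs from w1 to w8, and GCyoung nuclei had a median of 7458. Sex also moved with the library. By their sex-linked transcripts 90.7% of the GCmat1 nuclei of w4 that could be called were female, but 13.3% of those of w8, close to the 82.0% and 13.7% of all nuclei of these libraries. The authors had removed a group of w4 nuclei that they took to be possibly from 1 male mouse. Cell barcodes shared by w4 and w8 numbered 7, and 2 of them were GCmat1 nuclei in both. Week and animals cannot be told apart, so differences between w4 and w8 are given as values only. For GCmat1 and GCyoung, sex could be separated by the calls on single nuclei. This rests on only 36 male GCmat1 nuclei in w4 and 31 female GCyoung nuclei in w8. GCmat2 had enough nuclei for a sum only as female in w4 (53) and male in w8 (121), so there sex and library go together.

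The 5 genes that mark GCmat1 were examined first. Kcnip4 encodes a partner of Kv4 potassium channels, Ntng1 the adhesion protein netrin-G1, Rapgef5 an exchange factor for Rap GTPases, Inpp4b a phosphoinositide phosphatase and Chst9 a sulfotransferase that acts on N-acetylgalactosamine. In GRCm38 (annotation of GENCODE release M21) Kcnip4 (ENSMUSG00000029088) spans chr5:48389502-49524907 on the minus strand, Ntng1 (ENSMUSG00000059857) chr3:109780040-110144011 on the minus strand, Rapgef5 (ENSMUSG00000041992) chr12:117516479-117759737 on the plus strand, Inpp4b (ENSMUSG00000037940) chr8:81342556-82127914 on the plus strand and Chst9 (ENSMUSG00000047161) chr18:15451924-15760157 on the minus strand. The study names the last 4 of them from these same nuclei, so their levels describe the cluster and do not test its label. Kcnip4, Rapgef5 and Chst9 had their highest level of all 13 clusters in GCmat1, with 12500 and 689 CPM of Kcnip4 and Chst9 in the nuclei without a pseudo-time left aside, while Ntng1 was higher in GCmat2 (710 CPM against 416) and Inpp4b in oligodendrocyte precursor cells (671 against 309).

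Rapgef5 stood at 270 CPM in GCmat1 of w4 and 251 in w8, against 85.1 and 54.4 in GCyoung, and the libraries did not overlap. Its log2 fold change against GCyoung was 1.96 ± 0.23 (SE), with an edgeR quasi-likelihood adjusted p of 5.0e-09. Chst9 stood at 390 and 427 CPM against 112 and 129, with no overlap either (log2 fold change 1.70 ± 0.25, edgeR adjusted p = 1.5e-06). Inpp4b stood at 190 and 327 CPM against 79.6 and 53.0 (1.93 ± 0.27, edgeR adjusted p = 3.7e-07). For Ntng1 the levels were 112 and 459 CPM against 74.2 and 108. All GCmat1 values lay above those of GCyoung, but w4 by far less than w8, in female (113 and 362 CPM) as in male nuclei (98.5 and 461). Summed over the w4 nuclei of early pseudo-time, which are most of them, Ntng1 was not above GCyoung, as the split by pseudo-time shows. The log2 fold change was 1.61 ± 0.26 (edgeR adjusted p = 8.1e-06). Kcnip4, at 10020 and 12290 CPM against 9026 and 7718, was not called (0.57 ± 0.37, edgeR adjusted p = 0.683), and it was the second most abundant transcript of GCmat1, with 1.20% of all UMIs. The level of each of the 5 genes was above GCyoung in all 4 groups of library and sex. With DESeq2 the calls of Ntng1, Rapgef5 and Chst9 were lost (adjusted p = 0.085, 0.059 and 0.221), and that of Ntng1 also with limma-voom or without w8 (0.166 and 0.15).

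**Figure D1:**
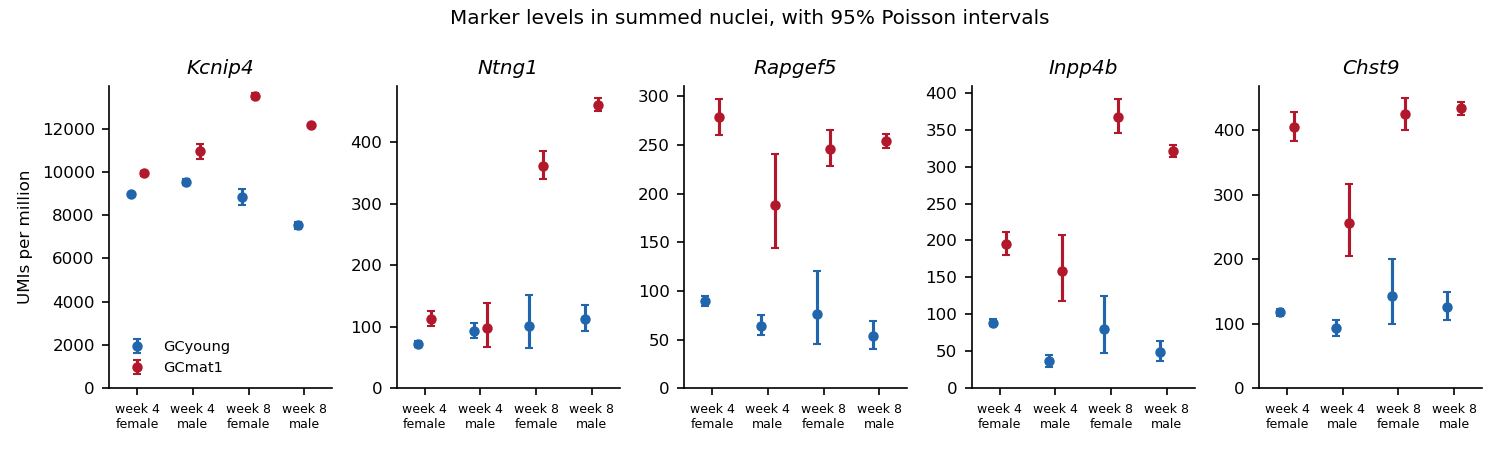
Levels of the 5 marker genes (vertical axis, CPM; each panel from 0) in GCmat1 and GCyoung, by library and by the sex called for the nuclei. Points are sums over the nuclei of a group and bars are exact 95% Poisson intervals. The point of GCmat1 lies above that of GCyoung in every group, from 98.5 against 93.0 CPM for Ntng1 in male nuclei of w4 to 461 against 113 in male nuclei of w8. For Ntng1 in male nuclei of w4 the intervals overlap.

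The share of nuclei with a UMI followed the same order. A Rapgef5 UMI was found in 72.5% of GCmat1 nuclei, 38.3% of GCyoung nuclei and 2.2% of 45 oligodendrocytes, whose median was 4801 UMIs. After each nucleus was thinned to 2000 UMIs the shares were 33.6%, 14.8% and 2.2%. For Kcnip4 the oligodendrocyte share was 26.7%, so a single UMI of this gene does not mark a granule cell.

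Along the path, Kcnip4 stood at 84.4 CPM in GCimm1, 1396 in GCimm2, 8904 in GCyoung and 11980 in GCmat1. Rapgef5 stood at 16.0 CPM in GCimm2, 82.2 in GCyoung and 253 in GCmat1, and Chst9 at 9.49, 113 and 420. Ntng1 was lowest in GCimm1 and GCimm2, at 5.44 and 6.15 CPM, below the 51.0 of NB2. Inpp4b likewise was higher in NB1 and NB2 (152 and 170 CPM) than in GCimm2 (6.82).

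**Figure D2:**
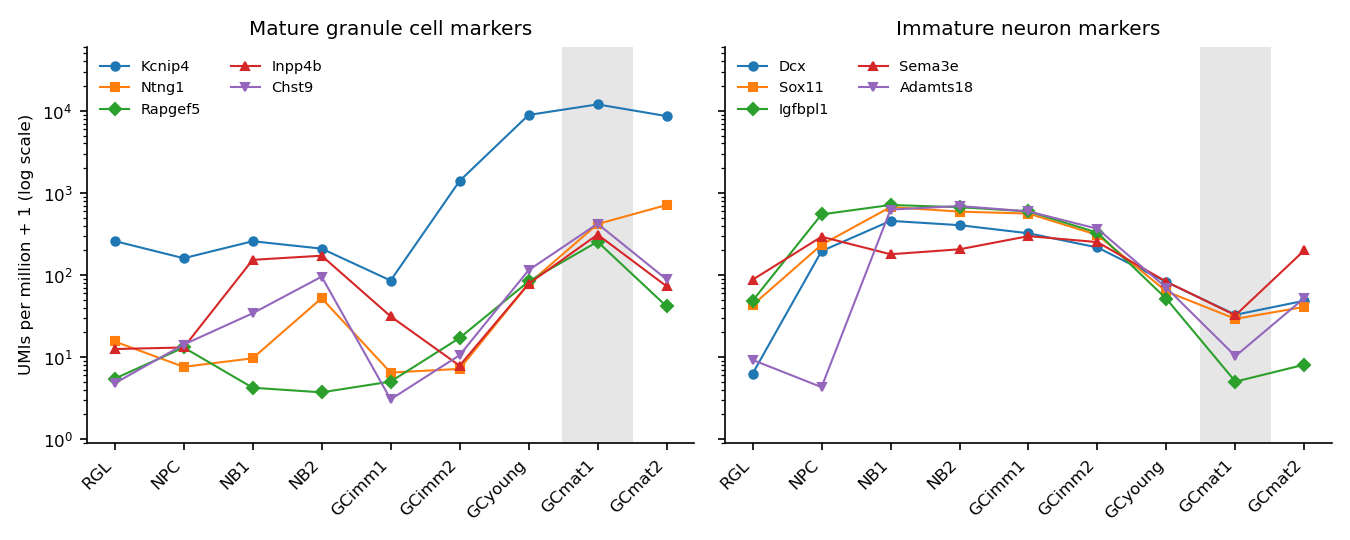
Levels of 5 mature markers (left) and 5 immature neuron markers (right) across the clusters in the order of the path (horizontal axis), as CPM plus 1 on a log axis; each point is the sum over all nuclei of a cluster and the shaded column is GCmat1. The mature markers reach between 253 and 11980 in GCmat1, while Igfbpl1 and Adamts18 are below 10 there.

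The step from GCyoung to GCmat1 was compared with sums of raw UMIs per library and cluster, fitted together with edgeR over 39 sums and 12884 genes. Genes were called where the fitted levels differed by 1.5-fold or more with a p of 0.05 or less after Benjamini-Hochberg adjustment over all genes. There were 214 genes called higher in GCmat1 and 325 called lower, which is 1.66% and 2.52% of the genes tested, 4.18% in all. Of these 539 genes 528 had the same direction in w4 and w8, and 177 of the higher and 270 of the lower genes kept it in all 4 groups of library and sex. The calls were made on these same libraries, so such agreement is partly fixed in advance, here and against GCmat2. The authors drew the clusters on the same nuclei, so the p-values do not test whether the clusters differ. Only w4 and w8 hold a sum of both clusters. The p-values weigh a difference against a spread drawn from all 39 sums, not from these libraries alone. This spread between pools is not that between animals. The number of calls depended on both late libraries and on the test: 200 genes without w4, 171 without w8, 240 with DESeq2, 250 with limma-voom, 285 in female and 233 in male nuclei alone.

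The 10 largest increases were led by A330050F15Rik, an uncharacterized transcript, at 41.3 and 31.3 CPM in w4 and w8 against 6.33 and 4.88 (log2 fold change 2.75 ± 0.31, edgeR adjusted p = 2.7e-09). The others were Ptgs2os, Hist2h4, Rhbdl3, Itga7, Itgav, Epha10, Cdh18, Svil and 4930448N21Rik, with log2 fold changes between 2.19 and 2.68. Itga7 and Itgav encode integrin alpha subunits, Epha10 an Eph receptor, Cdh18 a classical cadherin and Svil an actin-binding protein. Epha10 stood at 42.1 and 51.1 CPM against 12.3 and 4.88, Itga7 at 24.7 and 14.8 against 3.80 and 4.18, and Cdh18 at 14.3 and 63.2 against 5.38 and 5.58. These groups did not overlap, but the 324 w4 nuclei of early pseudo-time held 8.0 CPM of Cdh18 (exact 95% Poisson interval 5.07 to 12), which covers GCyoung, and its call was lost without w8 and with DESeq2. Of the 10 genes, A330050F15Rik, Rhbdl3, Itgav, Epha10 and 4930448N21Rik kept their call under every alternative run.

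The 10 largest decreases were deeper. Fam163a fell from 26.4 and 13.2 CPM in GCyoung to 1.12 and 0.305 in GCmat1 (log2 fold change -5.38 ± 0.46, edgeR adjusted p = 8.9e-13). Chrm3, a muscarinic acetylcholine receptor, stood at 16.0 and 2.88 CPM against 53.0 and 84.4 (-3.33 ± 0.39, edgeR adjusted p = 7.7e-09). Cntn6, a contactin of the immunoglobulin family, stood at 2.53 and 0.872 CPM against 17.7 and 34.9 (-4.39 ± 0.33, edgeR adjusted p = 2.0e-14). The others were Fxyd5, Mndal, Myo16, Fnbp1l, Nell1, Fxyd7 and Kctd8, with log2 fold changes between -5.11 and -3.32. In none of the 10 did GCmat1 and GCyoung overlap between libraries, but choosing large called changes of 1 direction in both libraries made this likely. All 10 kept their call under every alternative that gave a value for them.

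**Figure D3:**
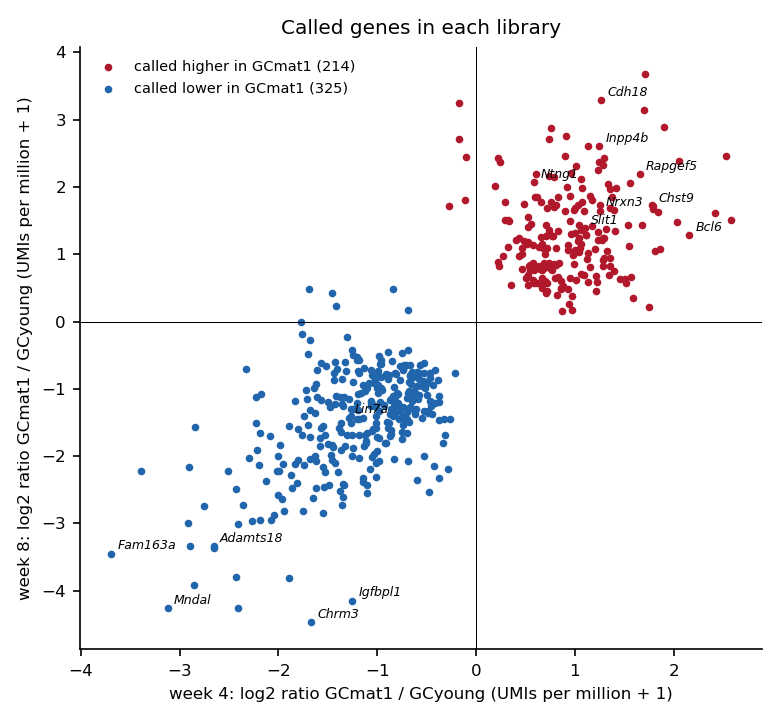
Log2 ratio of GCmat1 to GCyoung (CPM plus 1) in w4 (horizontal axis) and w8 (vertical axis), 1 point per called gene. Genes called higher and lower have different colours, 14 genes are named, and genes not called are not drawn. Called genes lie in the upper right and lower left quadrants with few exceptions (528 of 539 have the same direction in both libraries). The calls were made on these same libraries, so this agreement is partly fixed in advance.

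Gene groups were read against these shares. Among 15 markers of immature neurons 8 fell and none rose, with a median log2 fold change of -1.06 where the median of all genes was 0.00. DESeq2 called 4 lower and limma-voom 8, with 0 higher in both and at an unadjusted edgeR p below 0.05. Without w4 there were 6 lower calls and without w8 2. The 8 genes were Sox11, a SoxC transcription factor (37.9 and 26.0 CPM against 61.0 and 64.8, -0.88), Dcx, the microtubule-binding protein doublecortin (42.1 and 30.1 against 81.1 and 72.5, -1.06), the axon guidance genes Robo1 (-0.92), Sema3c (-1.45) and Sema3e (-1.55), Rgs6 (-1.16), Igfbpl1 (-2.58) and Adamts18 (-2.99). Igfbpl1 stood at 20.8 CPM in GCmat1 of w4 and 1.22 in w8, against 50.9 and 38.3. Without w8 only Adamts18 and Sema3e kept their calls, and these kept them under every alternative run. Sox4, the other SoxC gene, was at 4.77 and 3.97 CPM against 6.02 and 2.09 and was not called (0.07 ± 0.36). Of 5 genes that the study names as lower in mature cells, a list chosen on these samples and so not independent of them, Plppr1 was not analysed here and 3 of the other 4 fell: Lin7a (-1.35), the sodium-calcium exchanger Slc8a1 (-1.61) and the cadherin Pcdh15 (-1.92). The long noncoding RNA Meg3, at 1442 and 1154 CPM against 2145 and 2121, was lower in both libraries but was not called (-0.37 ± 0.32). The fit also holds the w1 sum of GCmat1, which has no GCyoung sum beside it. The fitted value of Meg3 thus need not lie between the ratios of w4 and w8. The neighbours of Meg3 in the same imprinted cluster, Rian (-0.77) and Mirg (-1.05), were 2 of 8 long noncoding RNAs called lower. DESeq2 and limma-voom called 0 of the 8, and both calls were also lost without w8.

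Ras, Rap and phosphoinositide signalling was the list with the most increases: 8 of 32 genes rose and 2 fell, with a list median of 0.05. DESeq2 called 4 and 2 and limma-voom 7 and 2, while without w4 and without w8 there were 4 higher and 0 lower calls each. Rasgrp1, a Ras exchange factor opened by calcium and diacylglycerol, stood at 16.6 and 20.6 CPM against 4.50 and 6.97 (2.09 ± 0.33, edgeR adjusted p = 7.7e-06). Dgkz, the kinase that removes diacylglycerol, stood at 140 and 83.4 CPM against 47.3 and 37.6 (1.5 ± 0.18, edgeR adjusted p = 1.9e-08), and kept its call under every alternative run. Besides Rapgef5 and Inpp4b, the others higher were Iqgap2 (1.15), Pip5k1b (0.84), Rasgrf2 (0.66) and Rapgef2 (0.64). Rapgef5 and Inpp4b are markers that the study names from these same nuclei, so their part of the count is not independent of the cluster. Pik3r1, the regulatory subunit of phosphoinositide 3-kinase, was lower (-0.97), as was Rapgef3 (-3.19, 6 UMIs in GCmat1). Of the 32 genes 11 had their highest level of all clusters in GCmat1, as had 398 of the 12884 genes tested. The calcium-stimulated adenylyl cyclases Adcy8 (1.42) and Adcy1 (0.91) rose, the phosphodiesterases Pde1a (-0.97) and Pde4b (-1.81) fell, and the other 19 of 23 genes of cyclic nucleotide signalling were not called. For this list DESeq2 and limma-voom each called 0 higher and 1 lower: Adcy8, Adcy1 and Pde1a lost their call under both, Adcy8 and Adcy1 also without w8 and Pde1a without w4. In calcium handling, the intracellular release channels Itpr1 (0.86) and Ryr1 (0.84) were higher and Slc8a1 lower, of 17 genes (0 higher and 1 lower by DESeq2 and without w4, 1 and 1 by limma-voom and without w8).

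Among axon guidance genes 5 rose and 5 fell of 31, and their median was -0.36, with 5 higher and 12 lower at an unadjusted edgeR p below 0.05. DESeq2 called 0 higher and 1 lower and limma-voom 0 and 3, and there were 2 and 2 without w4 and 3 and 1 without w8. The netrin receptors Unc5d (79.7 and 146 CPM against 36.0 and 76.7, 1.56) and Unc5c (1.20), the ligands Slit1 (317 and 339 CPM against 147 and 128, 1.37) and Efna5 (1.10) and the receptor Robo3 (0.86) were higher. Robo1, the secreted semaphorins Sema3a (-1.40), Sema3c and Sema3e and the receptor Ephb2 (-0.69) were lower. Of 38 synaptic adhesion genes 4 rose, Ntng1, Nrxn3, Flrt2 (1.00) and Lrrtm3 (0.74), and the teneurin Tenm4 fell (-1.45), with 1 higher and 1 lower by DESeq2 and 1 and 2 by limma-voom. At an unadjusted edgeR p below 0.05 there were 4 higher and 9 lower and the list median was -0.14, and 2 and 1 were called without w4 and 1 and 1 without w8. Nrxn3, a presynaptic neurexin, stood at 526 and 738 CPM against 220 and 235 (1.54 ± 0.27, edgeR adjusted p = 5.3e-05), and kept its call under every alternative run, although the sum over most w4 nuclei, those of early pseudo-time, lay below GCyoung, as the split by pseudo-time shows. In the presynaptic machinery 3 of 32 genes fell, namely the priming factor Unc13b (-0.74), Rims3 (-2.48) and the vesicle protein Sv2b (-2.90), with none called higher (2 at an unadjusted edgeR p below 0.05, 0 by DESeq2 or limma-voom). DESeq2 called 1 lower and limma-voom 2, and no lower call of this list was left without w4 and 1 without w8.

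Ion channels and receptors were unevenly called at this step. Of 29 sodium and calcium channel genes edgeR called 0, as did DESeq2 and limma-voom, and 2 passed an unadjusted p of 0.05. Of 42 potassium channel genes and partners, Kcnip3 rose (1.44) and 5 fell: the calcium-activated Kcnn2 (-0.82) and Kcnn3 (-0.82), Kcnh7 (-0.89), the Kv4 partner Kcnip1 (-2.71) and the sodium-activated Kcnt1 (-2.78, 11 UMIs in GCmat1), a share of lower calls above that of all genes, with 1 higher and 2 lower by DESeq2, by limma-voom and without w4, and 0 and 1 without w8. Kcnip1 stood at 0.842 and 2.97 CPM against 18.3 and 17.4 and kept its call under every alternative run. Of 22 glutamate receptor genes the kainate subunit Grik3 was higher (1.49) and the NMDA subunit Grin2d lower (-1.42), and of 16 genes of GABA receptors and chloride transporters Gabrg3 was lower (-0.79). For glutamate receptors DESeq2 called 0 higher and 1 lower and limma-voom 1 and 0, and for the GABA list both called 0, the call of Gabrg3 being lost under 10 alternatives. Against the mean of the other clusters, 30 of the 42 potassium channel genes, 26 of the 29 sodium and calcium channel genes and 16 of the 22 glutamate receptor genes were called higher in GCmat1, where 22.3% of all genes were. With the other nuclei of a library in 1 sum, 1, 0 and 1 genes of these lists were called higher. That fit holds far fewer sums, so its reference and its number of sums changed together.

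Of 22 late transcription factors 5 rose and none fell, with a median of 0.41 (10 higher and 0 lower at an unadjusted edgeR p below 0.05, 1 and 0 called by DESeq2 and without w4, 2 and 0 by limma-voom and without w8): Bcl6, a transcriptional repressor (58.7 and 42.1 CPM against 12.4 and 16.7, 1.80 ± 0.28, edgeR adjusted p = 5.5e-06), the thyroid hormone receptor Thrb (1.10), Glis3 (1.05), Foxk1 (0.73) and Mkx (0.62). Glis3 stood at 292 CPM in w4 and 614 in w8 against 202 and 208, and its call was lost without w8 and with DESeq2. That of Bcl6 was lost with DESeq2 and without w4, and that of Thrb with these, with limma-voom and with no library term. The calls of Foxk1 and Mkx were each lost under 7 or more alternatives. The study names Bcl6, Glis3, Foxk1 and Mkx as factors of late stages, shown in a second dataset of its own. Their part of the count is not independent of that choice. Of 18 genes of granule cell identity only the desmosomal gene Dsp was called by edgeR (1.11, and 0 genes by DESeq2 or limma-voom). Against the mean of the other clusters 17 were called higher, but only 1 with the other nuclei of a library in 1 sum. Several of the 18, such as Grin2a, Tenm1, Cpne4 and Ptchd4, are late-stage markers that the study names from these same libraries. The count against the mean is thus partly fixed in advance. Prox1, the transcription factor that specifies granule cells, stood at 370 and 306 CPM against 461 and 495 (-0.51 ± 0.18, not called), and Calb1, the calcium-binding protein calbindin of mature granule cells, at 142 and 118 against 115 and 86.4 (0.47 ± 0.19, not called). Of 12 activity-induced genes Sorcs3 rose (1.99), from 6.90 and 4.88 CPM to 17.7 and 29.5, and the others were not called (0 genes by DESeq2, 1 by limma-voom). Car10, which the study names beside the other markers of GCmat1, was called (1.00, edgeR adjusted p = 0.024), but stood below GCyoung in w4 (58.7 against 71.0 CPM) and above it in w8 (334 against 101). Without w8 its log2 fold change was 0.06, and the call was lost there and under 6 other alternatives, DESeq2 and limma-voom among them.

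**Figure D4:**
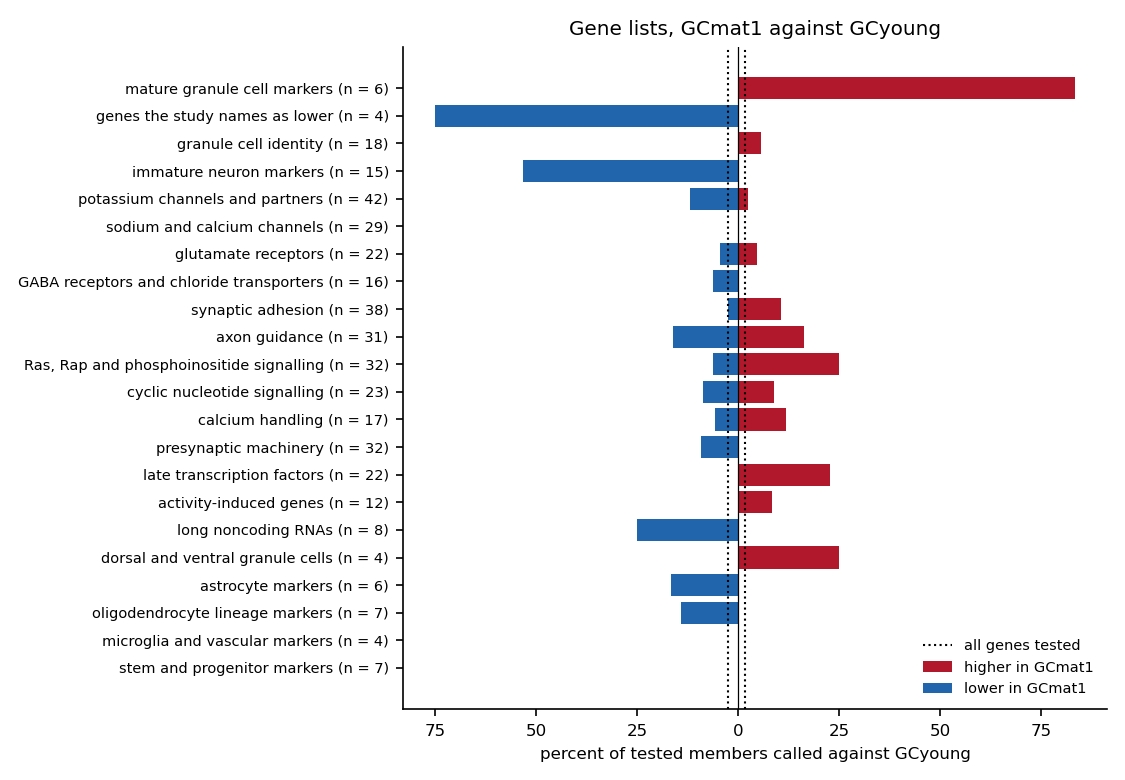
Percent of the tested members of each gene list called higher (right) or lower (left) in GCmat1 than in GCyoung, with the number tested in parentheses; dashed lines mark the shares over all genes tested, 1.66% higher and 2.52% lower. The longest bar to the left among lists over 10 genes belongs to immature neuron markers (8 of 15) and the longest to the right to Ras, Rap and phosphoinositide signalling (8 of 32). The latter count includes Rapgef5 and Inpp4b, which the study names for GCmat1 from these same nuclei.

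GCmat1 differed from GCmat2 in 926 genes, 482 higher and 444 lower (7.19% of those tested), 911 of them in the same direction in w4 and w8. Without w4 there were 502 and without w8 358. Of 12 activity-induced genes 8 were lower in GCmat1 and none higher, with a list median of -1.68 against 0.10 for all genes. Acvr1c, Sorcs3 and Bdnf, which are among the 8, were named by the study for GCmat2 from these same nuclei. Their part of the count describes that cluster and is not independent of it. DESeq2 called 6 lower and limma-voom 5, with 0 higher in both and at an unadjusted edgeR p below 0.05. Without w4 6 were lower and without w8 3. Bdnf, the neurotrophin, stood at 96.0 and 72.3 CPM against 248 and 186 in GCmat2 (-1.22 ± 0.22, edgeR adjusted p = 3.9e-05), a call lost with DESeq2, with limma-voom and without w8. Sorcs3 stood at 17.7 and 29.5 CPM against 758 and 900, the widest gap of the list (-4.90 ± 0.26). The immediate early genes Egr1 (-2.64) and Nr4a1 (-2.85) and the synaptic gene Nptx2 (-3.44) were lower too, on only 39, 20 and 38 UMIs in GCmat1. The largest decreases over all genes were Nell1 (5.90 and 1.61 CPM against 108 and 154, -5.73), the protease gene Pappa (0.842 and 2.36 against 106 and 124, -5.52), the cadherin Cdh4 (0.842 and 2.79 against 95.0 and 111, -5.45), Sorcs3 and the survival gene Bcl2 (4.77 and 3.05 against 102 and 70.4, -4.46).

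In the other direction, the 5 largest called increases within the limits for named genes all had no UMI in the 209 nuclei of GCmat2. Against the 3 counts that a sum of 0 allows there, Rbms1 was at least 8.58-fold higher in GCmat1, the chemokine receptor gene Ackr3 at least 8.56-fold, Itga7 at least 8.42-fold, Laptm4b at least 8.07-fold and the tryptophan dioxygenase Tdo2 at least 7.78-fold. Of the calcium release channels, Itpr1 stood at 283 and 327 CPM against 42.0 and 34.3 (3.07) and Ryr1 at 92.1 and 63.7 against 8.84 and 2.71 (3.99), while Ryr2 (0.31) and Ryr3 (-0.43) were not called. Bcl6 (3.95), Dsp (4.94), Calb1 (1.99) and Rasgrf2 (3.05) were higher too. Of the genes that rose from GCyoung, some stood higher still in GCmat2: Nrxn3 at 2904 and 4336 CPM (-2.43), Rasgrp1 at 68.5 and 116 (-2.16), Adcy8 at 223 and 381 (-2.74) and Ntng1 at 462 and 812 (-1.10). The call of Nrxn3 was kept under every alternative run, while DESeq2 lost the other 3. Nrxn3 too is named by the study for GCmat2 from these same nuclei, so its level describes that cluster. The comparisons with GCyoung and with GCmat2 share the GCmat1 sums.

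By the study's methods, GCmat1 nuclei with a strong signal of ventral genes were kept out of the pseudo-time, and the number stated there is larger than the 220 GCmat1 nuclei without a value in the deposited table. These 220 lay almost entirely in w8 (216, with 4 in w4), so only w8 holds both sides and the spread was borrowed from the other sums. They had a median of 10885 UMIs. By that comparison 328 genes were called (2.55%), 103 higher and 225 lower in the nuclei with a pseudo-time. In w8 Pde1a stood at 59.4 CPM in nuclei with a pseudo-time and 658 without (-3.73), Chrm3 at 2.88 and 112 (-4.19), Stk32b at 2.66 and 63.8 (-4.60), Nhs at 9.42 and 111 (-3.71) and Cobll1 at 4.28 and 46.7 (-3.40). Clmp, an adhesion molecule, had 1958 UMIs in nuclei with a pseudo-time and 0 in those without, which puts it at least 59.6-fold higher. Rasgrp1 had 2 UMIs in the nuclei without (ratio 25.8, 95% counting interval 7.10 to 213), Itga7 2 (19.8, 5.44 to 164), E230016M11Rik 1 (22.4, 3.98 to 888) and Svil 4 (17.9, 6.95 to 65.7). Genes of dorsal and ventral granule cells restate how the nuclei were set apart, and are given as a description with no test: in the nuclei with and without a pseudo-time Lct stood at 48.0 and 12.5 CPM, Gsg1l at 71.7 and 8.34, the thyrotropin-releasing hormone receptor Trhr at 1.61 and 55.5, and Nr2f2 at 1.44 and 15.8. The markers differed as well, since Ntng1 (459 against 121 CPM) and Inpp4b (327 against 138) were called higher and Rapgef5 (0.03 ± 0.34 on the log2 scale) and Chst9 (-0.56) were not called. The call of Ntng1 was lost with DESeq2, limma-voom and no library term, and that of Inpp4b under 7 of 16 alternatives.

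Against the mean of the other 12 clusters, with each cluster weighted equally on the log scale, 3774 genes were called (29.3%), 2877 higher (22.3%) and 897 lower (6.96%). This split differed with the scaling and with the test: the median log2 fold change of all genes was 0.18 in the TMM fit, 0.02 under RLE scaling, -0.08 by DESeq2 and -0.02 by limma-voom. DESeq2 changes the test as well as the scaling. The corresponding calls were 2316 higher and 1228 lower for RLE, 2130 higher and 2279 lower for DESeq2, and 2368 higher and 2827 lower for limma-voom. The lower calls are also limited by clusters without a UMI of a gene. Of 4172 tested genes with 0 UMIs in at least 1 other cluster, 1259 were lower by 1.5-fold or more and edgeR called 0 of them (0 at an unadjusted p below 0.05), while DESeq2 called 1078 genes of this kind lower and limma-voom 1780. Among the 8712 genes with a UMI in every cluster edgeR called 897 of 1126. The largest called increases with a known product were Oprm1, the mu opioid receptor (96.6 CPM, 7.14), Ndst4, a heparan sulfate enzyme (148, 7.03), Robo3 (41.1, 6.90), Dsp (51.0, 6.59), Htr4, a serotonin receptor (383, 6.46) and Trabd2b (6.73, 6.41), beside the uncharacterized Gm12027, RP24-158C2.4, 4930509J09Rik and Gm20319. Of the higher calls 1103 were in genes with 0 UMIs in at least 1 other cluster, and all 10 of these genes but Dsp lost their call with the other nuclei of a library in 1 sum, where 166 genes were higher and 1133 lower (Oprm1 1.75, Ndst4 2.69, Robo3 1.29, Dsp 2.06). Trabd2b stood at 275 CPM in pericytes, and Htr4 and Robo3 were higher in GCmat2 (517 and 48.1 CPM). Of the 12884 genes 398 had their highest level in GCmat1, and 231 in GCyoung. Among the 10 largest called decreases were Sox6 (0.598 CPM against 2285 in oligodendrocyte precursor cells and 1280 in RGL, -6.03) and Dock1 (0.860 against 570 in astrocytes, -6.26). The other 8 were Fam196a, Smoc1, Hivep1, Ppfibp2, Sash1, Tle3, Megf10 and Plekhg1, of which Fam196a, Smoc1, Ppfibp2 and Hivep1 had 2 to 8 UMIs in GCmat1.

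GCmat1 was not uniform along pseudo-time. Its nuclei spanned 25.2 to 31.6 with a median of 29.96, later than GCyoung (27.2), and its w4 nuclei lay earlier than its w8 nuclei (28.6 and 30.1). When the w8 nuclei were cut into 3 equal parts by pseudo-time, Car10 stood at 176, 263 and 476 CPM, Inpp4b at 253, 342 and 358, Adcy8 at 39.3, 57.5 and 79.8, Glis3 at 537, 572 and 688, and Nrxn3 at 326, 891 and 867. Dgkz went the other way, at 122, 79.6 and 63.6 CPM, as did Rapgef5, at 306, 232 and 234. Ntng1 was highest in the middle (364, 567 and 436), and Chst9 showed no order (450, 364 and 458). The median depth was 5741, 7473 and 10748.5 UMIs and the number of female nuclei 182, 88 and 54, so that depth and sex moved along with pseudo-time. Their part in these levels was not tested, and the pseudo-time was itself computed by the authors from expression.

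In w4 the levels of some of these genes differed between nuclei of early and late pseudo-time. At a pseudo-time of 29, a value chosen after the data were seen, 324 nuclei of w4 lay below and 75 at or above it, with medians of 8564.5 and 9139 UMIs and 283 and 69 female nuclei. Ntng1 stood at 68.5 CPM (exact 95% Poisson interval 59.3 to 78.8) in the former and 294 (255 to 338) in the latter, where GCyoung of w4 had 74.2. Nrxn3 stood at 141 and 2136 CPM, around the 220 of GCyoung, Unc5d at 46.6 and 219, Unc5c at 109 and 345, Inpp4b at 158 and 328, and Car10 at 40.7 and 134. Rapgef5 stood at 264 and 296 CPM and Chst9 at 409 and 310. In w8 the 117 nuclei below 29 had 199 CPM of Ntng1 and 169 of Nrxn3, against 468 and 758 in the 2594 others and 108 and 235 in GCyoung of w8.

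The 26 GCmat1 nuclei of w1 and w2 had levels of several of these genes above those of w4 and w8. Together they held 781 CPM of Ntng1 (95% Poisson interval 677 to 896), 1577 of Nrxn3 (1428 to 1738) and 572 of Unc5d (484 to 672). Inpp4b (406 CPM) and Epha10 (201) were above the later libraries, while Rapgef5 (178) and Chst9 (220) were below them. Their pseudo-time medians were 29.7 in w1 and 29.8 in w2. Leaving the w1 sum out of the fit gave 517 calls against GCyoung in place of 539.

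**Figure D5:**
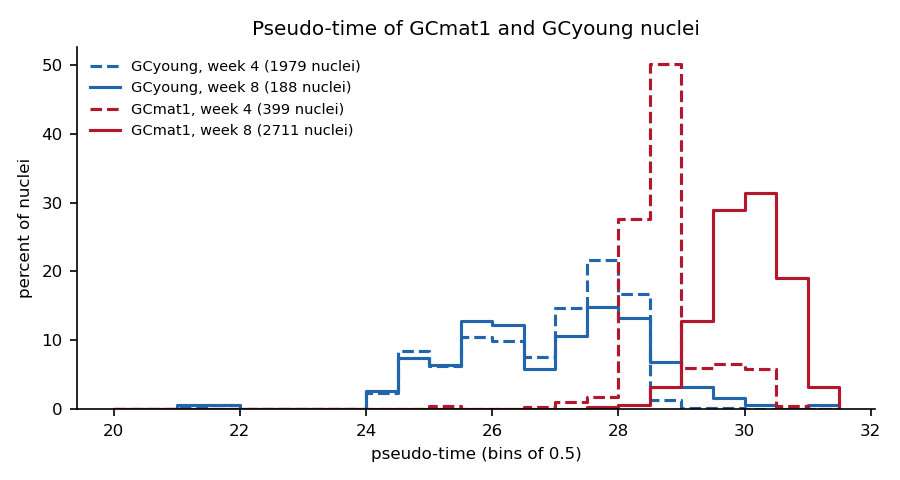
Share of nuclei (percent, vertical axis) per bin of 0.5 in pseudo-time (horizontal axis) for GCmat1 of w4 and w8 and for GCyoung, each line adding up to 100%. The w4 nuclei of GCmat1 (median 28.6) lie between GCyoung (27.2) and the w8 nuclei (30.1).

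Markers of other cells were summed over each list. Those of pyramidal neurons came to 6 and 7 CPM in w4 and w8, of GABAergic interneurons to 49 and 40, of astrocytes to 37 and 68, of the oligodendrocyte lineage to 63 and 75, of microglia and vessels to 42 and 48, and of stem and progenitor cells to 51 and 60. GCyoung had 7 and 3, 59 and 46, 35 and 21, 73 and 63, 40 and 50, and 58 and 66 CPM. Among single genes, Gad1 stood at 39.1 CPM in GCmat1, the myelin gene Mbp at 65.6 against 6296 in oligodendrocytes, and the astrocyte transporter Slc1a3 at 60.4 against 4784 in RGL. P2ry12 (38.9 CPM), a microglial gene, lies inside the span of Med12l on the opposite strand. Pdgfra had 0 UMIs in GCmat1 and 850 CPM in oligodendrocyte precursor cells. It and Gfap (-1.85) were the only tested members of these 6 lists called against GCyoung by edgeR, where 4.18% of all genes were called. Pdgfra was called on 8 UMIs in GCyoung, and both calls were lost under 8 or more alternatives. Only 1 of 6 GABAergic, 2 of 4 pyramidal and 4 of 9 microglial and vascular genes were tested. All 6 astrocyte, 7 oligodendrocyte lineage and 7 stem and progenitor genes were. DESeq2 called 0 members and limma-voom 1, Slc1a3, as higher. Against the mean of the other clusters Mki67 (3.5), Gad1 (1.41) and P2ry12 (1.21) were called higher in GCmat1, Mki67 at 12.4 CPM against 120 in NPC. With the other nuclei of a library in 1 sum the calls of Mki67 and P2ry12 were lost and Gad1 reversed.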

How the data were processed

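Nuclei from pooled dentate gyri (left hemisphere) were sorted by green fluorescence and sequenced with 10x 3′ chemistry. The promoter that drives Cre is not reported here. The deposited count files hold raw UMI counts, which the authors made with STARsolo 2.7.4a on mm10 over exons and introns. A deposited table of log2 expression (counts over scran size factors, plus 1) also names each nucleus's library, cluster and pseudo-time. Before deposit, the authors had removed doublets, low-quality nuclei and a group of w4 nuclei, and had left sex-linked and stress genes out of the clustering. The log2 values were used only to match the nuclei of the table with the counts, and all levels come from the counts.

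UMIs were summed per library and cluster where at least 10 nuclei were present, which leaves out the 9 GCmat1 nuclei of w2. The 39 sums entered 1 fit with edgeR 4.0.16 in R 4.3.3 (filterByExpr, TMM, glmQLFit, glmQLFTest), with cluster and library as terms, 22 residual degrees of freedom and a common dispersion of 0.0151. All GCmat1 nuclei together hold 26745306 UMIs, from 102549 in w2, which did not enter the fit, to 22925134 in w8. Intervals are exact (Poisson for levels) at 95% and cover counting error only, and a sum of 0 UMIs was set to a limit of 3. Data were simulated from edgeR's own fitted means and dispersions, and only genes above a low mean count were changed. For GCmat1 against GCyoung, 61 of 66 genes changed 4-fold, 42 of 67 changed 2-fold and 15 of 67 changed 1.5-fold were recovered, with 6 false calls over 12358 genes. Against GCmat2 these were 48 of 66, 25 of 67 and 10 of 67, with 2 false calls over 12339 genes. Such data cannot show how calls fare under another test.

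Named genes are the 5 markers, the 10 largest called increases and decreases against GCyoung and against the mean (5 for the other comparisons) with at least 200 UMIs and 1 direction over libraries, and up to 4 members of each list. Further list members are named because they were called, after their values were seen. The members and the lists were chosen with earlier results of these data known. Alternatives were RLE factors, DESeq2 1.42.0, no filter on low counts, no library term, at least 50 nuclei, thinning to 2000 UMIs, sums split by sex, a 2-fold threshold and each library left out. After seeing the data 6 were added: no w1 sum of GCmat1, trajectory clusters alone, female or male nuclei alone, limma-voom (limma 3.58.1) and the other nuclei of a library in 1 sum. Tables were made with Python 3.11.15, numpy 2.4.6, pandas 2.3.3, scipy 1.17.1 and matplotlib 3.10.9.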

Additional observations from a re-analysis of the deposited data

Results flagged for a closer look

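Among the genes named or in a list, 3 differed between GCmat1 and GCyoung in opposite directions in w4 and w8, with counting intervals apart in both libraries and a difference of at least 1.5-fold in at least 1 of them. The difference between the libraries was not tested, since each week is 1 pool, and none of the 3 was called against GCyoung by edgeR. Cacna1g, a T-type calcium channel, stood at 19.9 CPM in GCmat1 and 11.9 in GCyoung of w4, and at 9.07 and 18.1 in w8. The noncoding RNA Snhg11 stood at 81.2 and 165.5 CPM in w4, and at 359 and 206 in w8. Gsg1l, an AMPA receptor partner, stood at 21.1 and 33.5 CPM in w4, and at 71.7 and 47.4 in w8. Over all genes tested 53 had intervals apart in opposite directions.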

How the results depend on the processing

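Of 85 genes called against GCyoung that were named or in a list, 25 kept the call under every alternative run and none reversed. DESeq2 lost 46, limma-voom 33, leaving out w4 37 and leaving out w8 43. With DESeq2 there were 240 calls against GCyoung (57 higher, 183 lower) and 134 with against without pseudo-time. With limma-voom the counts were 250 (72 higher, 178 lower) against GCyoung, 603 against GCmat2 and 132 with against without pseudo-time. Thinning to 2000 UMIs gave 318, 500 and 173, female nuclei alone 285, 420 and 122, and male nuclei alone 233, 390 and 171. The 17 GCmat1 nuclei of w1 have no GCyoung sum beside them but enter the fit. A fitted fold change against GCyoung therefore need not lie between the ratios of w4 and w8. The library term of the fit pairs clusters of the same pool. Without it there were 379 calls against GCyoung, 679 against GCmat2, 216 with against without pseudo-time and 3800 against the mean. Leaving out 1 library gave 171 to 597 calls against GCyoung, 358 to 1113 against GCmat2, 255 to 435 with against without pseudo-time (no value without w8) and 2780 to 3766 against the mean. With the other nuclei of a library in 1 sum, calls against the mean came to 1299 (166 higher, 1133 lower). Lin7a (-0.29), Mirg (-0.63), Adcy8 (-0.10), Sorcs3 (-0.69), Gad1 (-0.069) and Gsg1l (-0.19) reversed there on the log2 scale. That alternative lets large clusters weigh more in the reference and also leaves far fewer sums and residual degrees of freedom. The part of each in the lost calls was not tested. In female nuclei alone Mag (0.11) reversed against the mean and Efna5 (0.86) against GCmat2, and with DESeq2 Cacng3 (0.23) reversed against GCmat2. Except where its construction shows it, the cause was not tested. At or under 3 UMIs in a sum, only wide differences could be shown.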
